A study of Mus musculus with 25 samples.

Results

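Interferon-stimulated genes are the genes that cells switch on when an interferon binds its receptor. They were followed in mouse embryonic fibroblasts that lack Tsc1 or Tsc2, the partner proteins that restrain the growth kinase mTORC1. The set held 37 genes chosen by name, and 35 of them were measured by a probe set that named 1 gene alone, out of 18162 genes measured that way. The probe set for Isg15 also named Gm9706, so it was given no value, and Ifi44 was not analysed here. The expression arrays numbered 25 in 11 groups. The wild-type line was Tsc2+/+ and p53-/-, the Tsc2-null line was Tsc2-/- and p53-/- and came from a littermate, and the Tsc1-null line was Tsc1-/- with p53+/+ and had been immortalised by the 3T3 protocol. Each line received the solvent DMSO (vehicle) on 3 arrays. Each null line was also given rapamycin, which inhibits mTORC1, at 20 nM, with 2 arrays at each of 2, 6, 12 and 24 h, and no wild-type array with rapamycin was analysed here. All cells were serum starved. Each genotype was 1 cell line, so genotype and line cannot be told apart, and the Tsc1-null line also differed from the wild type in p53. The labels call the arrays biological replicates of these lines, so p-values measure the spread between such replicates.

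Type I interferons bind a receptor of Ifnar1 and Ifnar2, whose kinases Jak1 and Tyk2 activate Stat2. Stat2 and Irf9 act in a complex that binds the interferon-stimulated response element in promoters of genes such as Ifit1 and Mx1. Interferon gamma acts through Ifngr1 and Ifngr2, Jak1 and Jak2 and the gamma-activated site in promoters, a route that drives Irf1 and the interferon-inducible GTPases. Fibroblasts can make interferon beta, and a low constitutive response keeps many of these genes detectable without infection.

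Promoters of 25 of the 35 measured members were found in the RefSeq table (build GRCm38.p6), each spanning 250 bases before to 50 after a gene's start. The core of the response element, GAAA, 2 bases of any kind and GAAA again, occurred on either strand in promoters of 13 of the 25 members (52.0%), against 3.99% of 27025 genes and 3.44% of 32851 promoters. The letters TTCNNNGAA of the gamma-activated site occurred in 6 of 25 members (24.0%), against 9.55% of genes and 8.3% of promoters. A match is a run of letters and no measured binding. The 170 bases before the start are shown for some members, with the matches in capitals. These are Irf1 and the members with a response element match whose Tsc2-null difference from the wild type under vehicle was largest. They hold the response element alone (Ifit1, Ifit3), both kinds of match (Bst2, Igtp, Irgm2) or the gamma-activated site alone (Irf1, its first of 2 listed promoters).
Ifit1 promoter (chr19:34640719-34640888, plus strand): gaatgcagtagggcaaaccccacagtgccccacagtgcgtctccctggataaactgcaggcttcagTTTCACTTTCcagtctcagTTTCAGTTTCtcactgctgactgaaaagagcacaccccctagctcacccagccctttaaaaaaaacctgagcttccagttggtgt
Ifit3 promoter (chr19:34583359-34583528, plus strand): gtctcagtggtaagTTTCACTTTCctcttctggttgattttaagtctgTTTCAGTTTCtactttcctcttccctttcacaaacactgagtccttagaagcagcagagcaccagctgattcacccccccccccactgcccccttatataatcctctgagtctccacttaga
Bst2 promoter (chr8:71537473-71537642, minus strand): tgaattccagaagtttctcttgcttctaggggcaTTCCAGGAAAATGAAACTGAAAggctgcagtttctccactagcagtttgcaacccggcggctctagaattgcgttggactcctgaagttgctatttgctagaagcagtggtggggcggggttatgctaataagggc
Igtp promoter (chr11:58199386-58199555, plus strand): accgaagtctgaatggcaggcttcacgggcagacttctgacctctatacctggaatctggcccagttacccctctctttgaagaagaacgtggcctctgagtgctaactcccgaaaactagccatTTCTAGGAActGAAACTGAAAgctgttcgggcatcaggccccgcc
Irgm2 promoter (chr11:58214807-58214976, plus strand): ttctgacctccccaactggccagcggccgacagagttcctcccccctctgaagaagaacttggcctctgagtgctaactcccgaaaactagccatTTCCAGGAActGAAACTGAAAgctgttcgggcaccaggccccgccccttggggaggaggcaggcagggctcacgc
Irf1 promoter (chr11:53769844-53770013, plus strand): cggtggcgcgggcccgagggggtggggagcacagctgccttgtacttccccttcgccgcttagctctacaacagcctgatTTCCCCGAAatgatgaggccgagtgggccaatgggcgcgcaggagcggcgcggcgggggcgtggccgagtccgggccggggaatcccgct
In Ifit1 the response element letters lay 104 and 85 bases before the start, and in Ifit3 156 and 122 bases before it, in each case on the opposite strand. In Igtp and Irgm2, neighbouring GTPase genes on chromosome 11, the gamma-activated letters lay next to the response element in the same order, 45 and 34 bases before the start in Igtp and 75 and 64 in Irgm2. In Bst2 the response element matches 130 and 124 bases before the start overlapped each other, and the first of them overlapped the gamma-activated match 136 bases before it. Of the members, 9 lie on chromosome 11.

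Array medians ran from 6.26 to 6.41 log2 units, and replicate arrays of a group correlated at 0.9957 to 0.9981 across probe sets. Tsc1 read 6.51 to 7.38 on the Tsc1-null arrays and 8.11 to 8.33 on the wild-type arrays. Tsc2 read 7.85 to 9.59 on the Tsc2-null arrays and 9.67 to 9.74 on the wild-type arrays. Where these probe sets lie relative to the deleted parts was not examined. Fibroblast collagen Col1a2 read 14.43 and vimentin (Vim) 13.93 in the wild-type mean, whereas the leukocyte marker Ptprc read 3.99 and the macrophage markers Itgam and Adgre1 read 4.40 and 5.68. The latter belong to a list of 8 macrophage markers whose summed level was 9.95 to 10.02 in the wild type, so others of that list read higher. Wild-type replicate 1 stood apart for these genes. It was the highest of the 3 wild-type arrays for 31 of 35 members, against 45.8% of all genes, and its median excess over the mean of the other wild-type arrays was 0.28. Without it, 34 members were called lower in Tsc2-null cells (median difference -1.94) and 27 in Tsc1-null cells (median -1.15).

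Under vehicle, every measured interferon-stimulated gene was lower in the Tsc2-null line than in the wild type. A call is an adjusted p under 0.05 in limma's moderated test, Benjamini-Hochberg over all 18162 genes. All 35 members were called lower and 0 higher, while 21.4% of all genes were called lower, 23.6% higher and 45.0% in either direction. The median difference was -2.03 (4.09-fold lower) against -0.01 over all genes, and 28 members were at least 2-fold lower, a level that 4.45% of all genes reached. Each of the 11 Tsc2-null arrays, rapamycin included, lay below each wild-type array for 35 of 35 members, which held for 14.3% of all genes. Their RNA was low in bulk cultures, in which fewer expressing cells and less RNA per cell cannot be told apart.

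In the Tsc1-null line most of the set was lower too, but by less and with exceptions. Against the wild type 27 members were called lower and 2 higher, while 20.8% of all genes were called lower, 21.3% higher and 42.1% in either direction. The median was -1.30 (2.46-fold lower) against -0.02 over all genes, and 20 members were at least 2-fold lower, against 3.91% of all genes. Both comparisons used the same wild-type arrays. All 11 Tsc1-null arrays lay below all wild-type arrays for 26 of 35 members, against 14.8% of all genes. The heat map of group means shows the Tsc2-null columns darker than the Tsc1-null columns for most members.

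**Figure D1:**
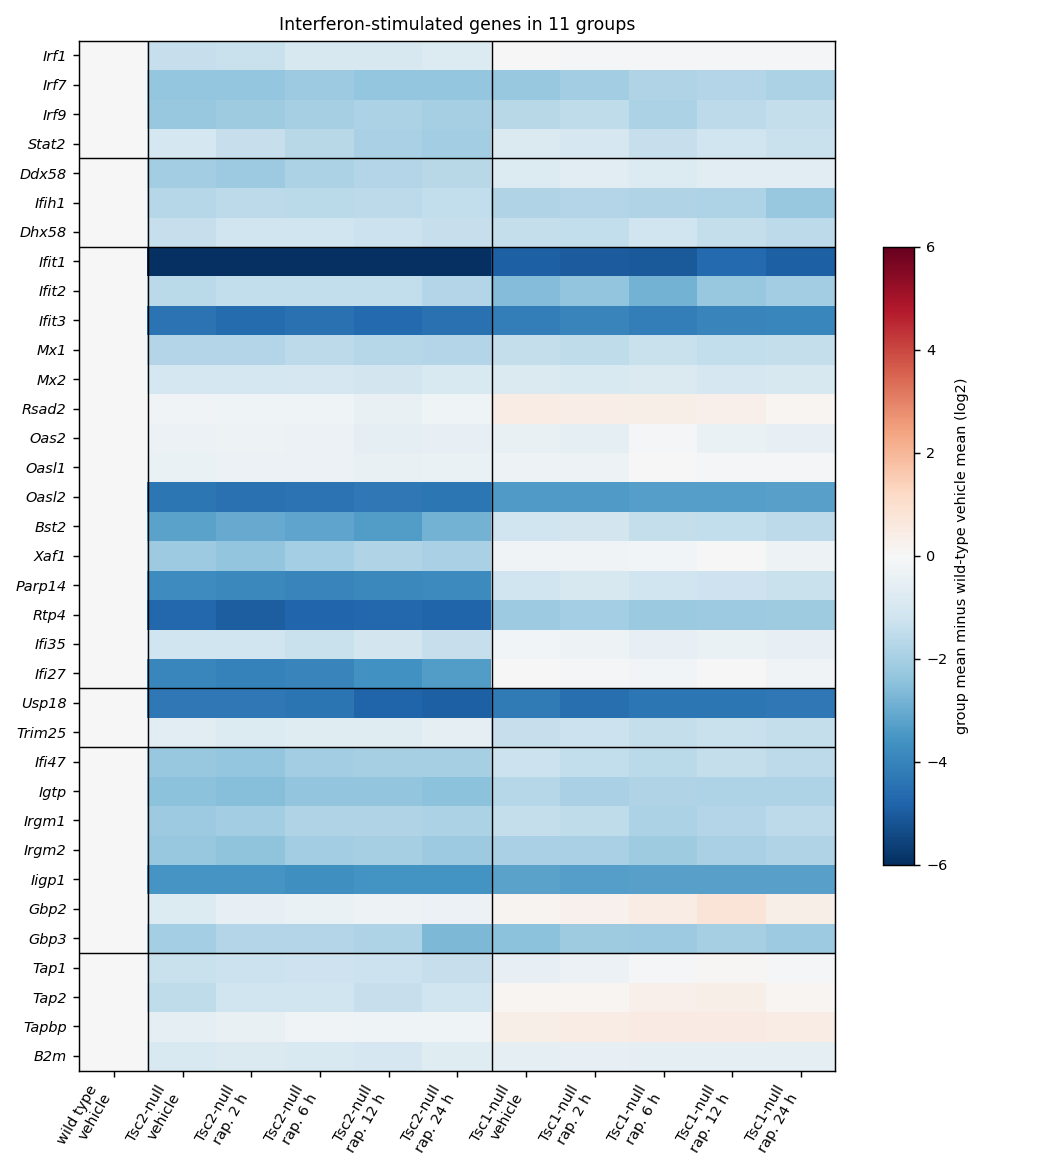
Mean level of each measured member (rows, grouped by role) in the 11 groups (columns), as the log2 difference from the wild-type vehicle mean, blue for lower and red for higher. Ifit1 is the lowest row, at -5.99 in the Tsc2-null line and -4.88 in the Tsc1-null line under vehicle, and columns within a null line look alike across rapamycin times.

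The null lines were also compared with each other. In Tsc1-null cells 22 members were called higher than in Tsc2-null cells and 3 lower, against 20.7% and 22.7% of all genes, and 43.4% in either direction. Of these, 10 were at least 2-fold higher, against 4.47% of all genes. The members fell into 5 patterns of calls, which share arrays between the comparisons. There were 14 members lower in both lines and higher in Tsc1-null than in Tsc2-null cells, a pattern of 3.41% of all genes. Another 10 were lower in both with the null lines not called apart (5.48% of all genes), and 6 were called lower against the wild type in Tsc2-null cells alone, with Tsc1-null cells called higher than Tsc2-null cells (4.6%). The remainder were 3 lower in both with Tsc1-null lowest (2.65%), and 2 lower in Tsc2-null but higher in Tsc1-null cells (3.53%). The last were Rsad2 and Tapbp.

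**Figure D2:**
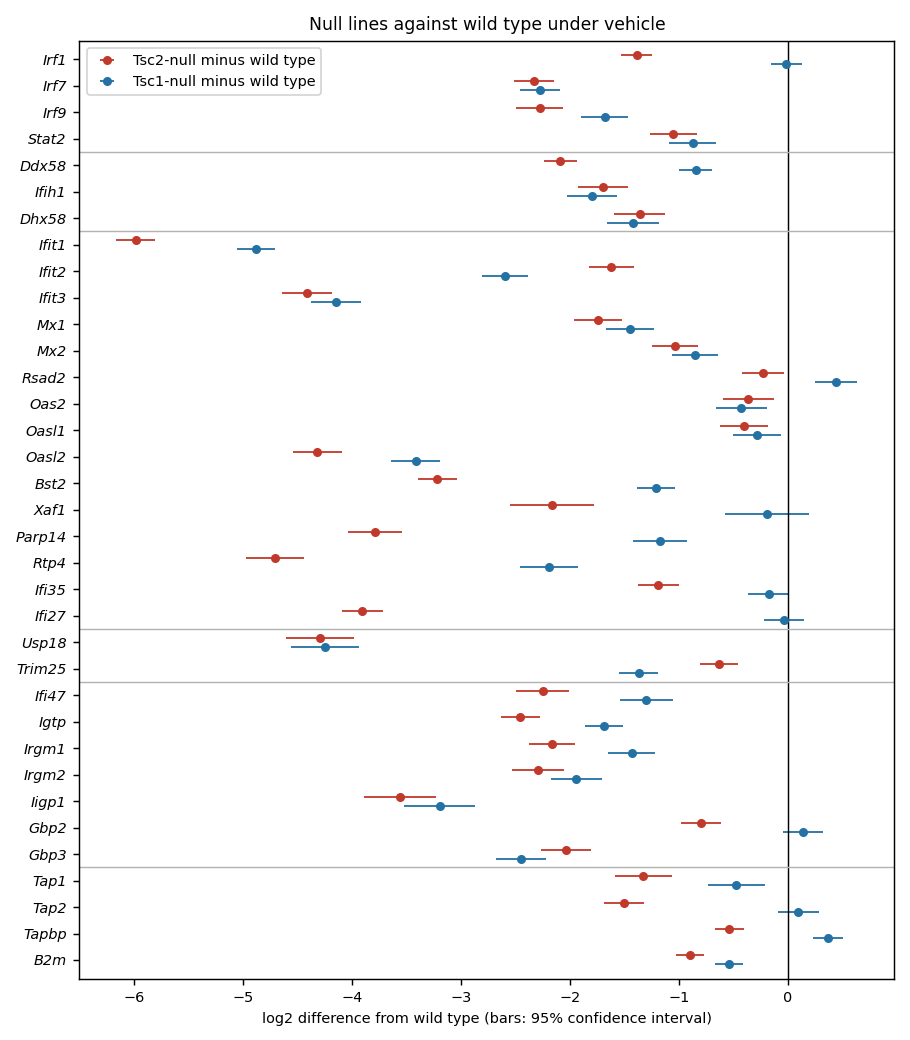
Log2 difference from wild type under vehicle for each member in Tsc2-null (red) and Tsc1-null (blue) cells, with 95% confidence intervals from the limma fit. All red points lie left of 0, whereas the blue points of Irf1, Ifi27, Tap2, Gbp2 and others lie at or near 0.

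Among the transcription factors, Irf7, Irf9 and Stat2 were lower in both lines and Irf1 in Tsc2-null cells alone. Irf7, which amplifies interferon gene transcription, read 8.29, 8.25 and 8.18 on the wild-type arrays, 5.78, 5.99 and 5.97 on the Tsc2-null arrays and 6.01, 6.02 and 5.86 on the Tsc1-null arrays. The null arrays overlapped each other and lay far below the wild type. Its difference was -2.33 (SE 0.09, adjusted p 8.01e-16) in the Tsc2-null line and -2.28 (adjusted p 1.64e-15) in the Tsc1-null line, and the null lines were not called apart (0.05, adjusted p 0.69). Irf9, the DNA-binding partner of Stat2, was 4.85-fold lower in the Tsc2-null line and 3.21-fold lower in the Tsc1-null line. Stat2 was 2.07-fold and 1.83-fold lower. Irf1, a factor strongly induced by interferon gamma, read 10.99, 10.92 and 10.83 in the wild type and 10.92, 10.95 and 10.82 in Tsc1-null cells, but 9.54, 9.43 and 9.60 in Tsc2-null cells. The wild-type and Tsc1-null arrays overlapped, and all Tsc2-null arrays were lower. The Tsc2-null difference was -1.39 (SE 0.07, adjusted p 9.21e-14) and the Tsc1-null difference -0.01 (95% interval -0.16 to 0.13, adjusted p 0.91), and the gap between the null lines was itself called (1.37, adjusted p 1.22e-13).

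The cytoplasmic RNA sensors were lower in both null lines. Ddx58, which encodes RIG-I, was 4.26-fold lower in the Tsc2-null line and 1.79-fold lower in the Tsc1-null line, and the null lines differed (1.25, adjusted p 1.83e-12). Ifih1, which encodes MDA5, differed by -1.69 and -1.80, and Dhx58, which encodes LGP2, by -1.36 and -1.42. For these the null lines were not called apart (adjusted p 0.53 and 0.74).

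The antiviral effectors held the widest range, from near no difference to a 63.5-fold one. Ifit1, whose protein binds viral RNA, read 11.96, 11.86 and 11.77 on the wild-type arrays, 5.91, 5.71 and 6.00 on the Tsc2-null arrays and 6.90, 6.91 and 7.12 on the Tsc1-null arrays. The 3 lines did not overlap. The difference was -5.99 (SE 0.08, adjusted p 1.26e-22) in the Tsc2-null line and -4.88 (29.5-fold, adjusted p 1.05e-21) in the Tsc1-null line. Its family member Ifit3 was 21.4-fold and 17.8-fold lower. Ifit2 ran the other way between the null lines, 3.07-fold lower in the Tsc2-null line and 6.05-fold lower in the Tsc1-null line, a called gap of -0.98 (adjusted p 2.60e-08). Oasl2, an oligoadenylate synthetase-like protein, was 20.0-fold and 10.7-fold lower.

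Several effectors were low mainly in Tsc2-null cells. Rtp4 read 11.03, 10.85 and 10.64 in the wild type, 6.26, 5.97 and 6.16 in the Tsc2-null line and 8.56, 8.51 and 8.86 in the Tsc1-null line, so the Tsc1-null arrays lay between the other lines. It was 26.1-fold lower in the Tsc2-null line and 4.57-fold lower in the Tsc1-null line. Parp14, an ADP-ribosyltransferase, was 13.8-fold and 2.26-fold lower, and Bst2, the tetherin that holds budding virions at the membrane, 9.30-fold and 2.31-fold lower. Ifi27 marked the extreme of this pattern. It read 11.27, 11.10 and 11.15 in the wild type and 11.04, 11.13 and 11.24 in Tsc1-null cells, which overlapped, but 7.17, 7.14 and 7.49 in Tsc2-null cells. The Tsc2-null difference was 15.0-fold (-3.91, adjusted p 1.32e-19) and the Tsc1-null difference -0.03 (95% interval -0.22 to 0.15, adjusted p 0.81).

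**Figure D3:**
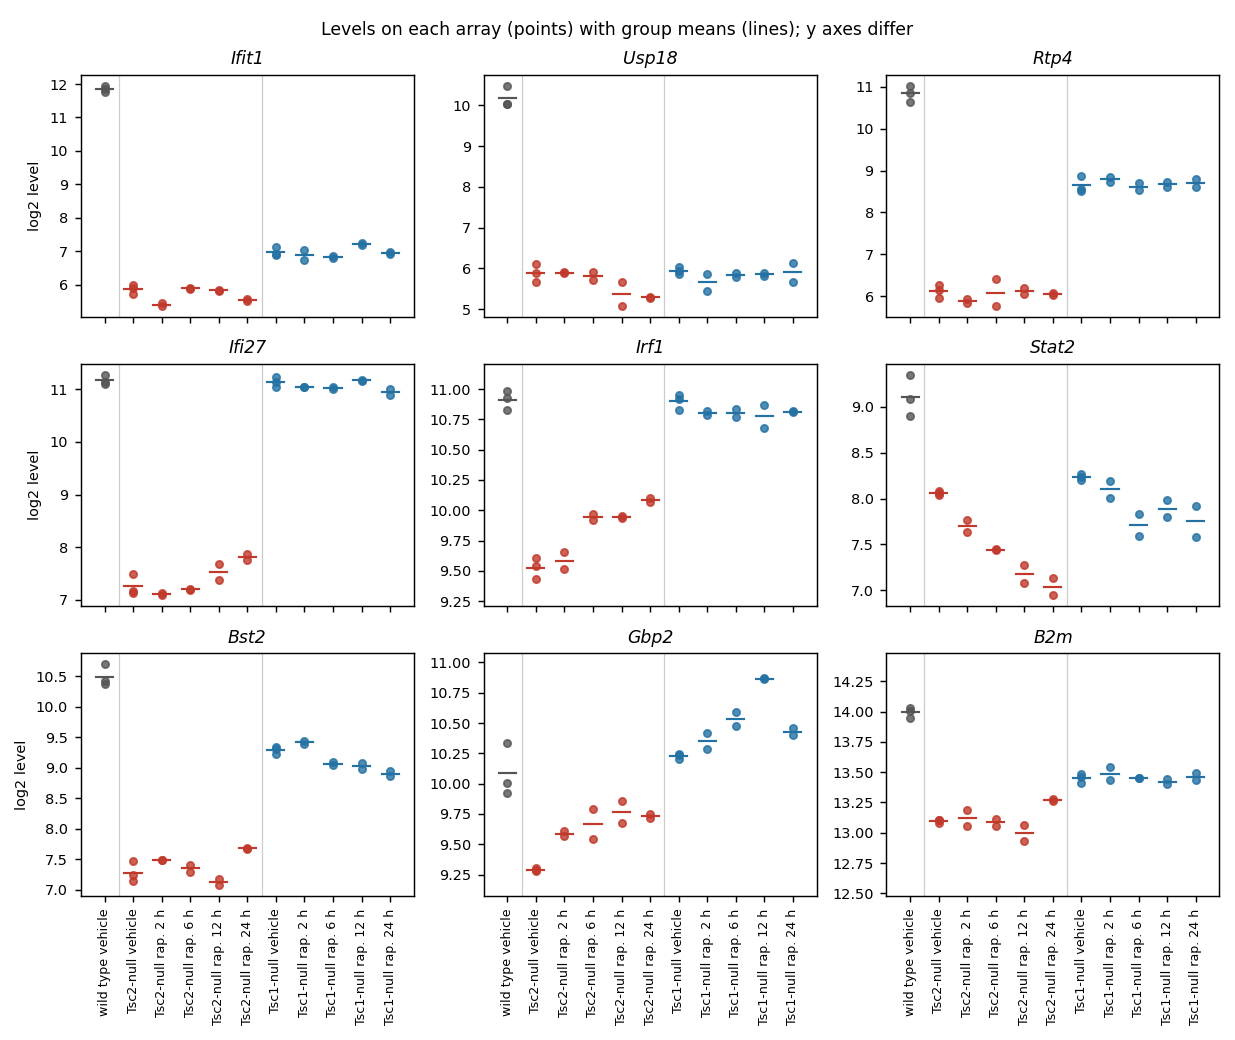
Log2 level of 9 members on every array (points) with group means (lines), wild type in grey, Tsc2-null in red and Tsc1-null in blue. Ifit1 and Usp18 are low in both null lines, Ifi27 and Irf1 in Tsc2-null cells, and Stat2 declines with time in rapamycin while Irf1 rises in Tsc2-null cells; the y axes differ between panels.

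The remaining effectors included Mx1, the 1 member that was dim in the wild type. The GTPases Mx1 and Mx2 were lower by -1.74 and -1.03 in the Tsc2-null line and by -1.45 and -0.85 in the Tsc1-null line, although Mx1 read only 5.39 to 6.00 on the wild-type arrays, under the 6.67 that marks the dimmest 40% of genes. Rsad2, which encodes viperin, differed by -0.23 in Tsc2-null cells (adjusted p 0.048), a call lost on leaving out any 1 of 5 of the 6 arrays (adjusted p 0.22 without Tsc2-null replicate 1, 0.068, 0.16 and 0.062 without wild-type replicates 1, 2 and 3, and 0.10 without Tsc2-null replicate 3). It was higher by 0.45 in Tsc1-null cells (adjusted p 0.00033), and its other probe sets ran the same way. Oas2 differed by -0.36 and -0.43. Oasl1 differed by -0.40 in the Tsc2-null line and -0.28 in the Tsc1-null line, the latter lost without wild-type replicate 2 (adjusted p 0.11) or 3 (0.090) or without any Tsc1-null replicate (0.068, 0.058 and 0.093). The Mx1 gap between the null lines (0.29, adjusted p 0.030) was lost without Tsc2-null replicate 1 (0.18) or 2 (0.060) and without Tsc1-null replicate 1 (0.095) or 2 (0.056). In all, 1 member in the wild type, 12 in the Tsc2-null line and 7 in the Tsc1-null line lay under that dim level with vehicle. The 7, all among the 12 as well, were Dhx58, Iigp1, Irf7, Mx1, Oasl1, Oasl2 and Usp18. For these, whether low signal narrowed the gap between the null lines was not tested.

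Xaf1 depended on the probe set. On the set with the higher mean the Tsc2-null line differed by -2.17 (adjusted p 1.39e-09) and the Tsc1-null line by -0.19 (adjusted p 0.48). On its other probe set the differences were -3.01 and -5.41, with an adjusted p of 3.24e-19 for Tsc1-null cells in a fit over all probe sets. Which of the 2 follows the Xaf1 transcript was not tested. Ifi35 differed by -1.19 in the Tsc2-null line and -0.17 in the Tsc1-null line (adjusted p 0.14). With quantile normalization the latter became a call (-0.23, adjusted p 0.035). The kept probe sets of Ifi35, Trim25 and Ifi27 are of a design that may bind more than 1 transcript.

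Usp18 and Trim25 act on the response itself, Usp18 by removing Isg15 from proteins and damping the type I receptor and Trim25 as a ubiquitin ligase of the RIG-I route. Usp18 read 10.49, 10.05 and 10.02 in the wild type, 5.68, 5.89 and 6.11 in the Tsc2-null line and 5.93, 5.86 and 6.02 in the Tsc1-null line. The null lines overlapped and were not called apart (0.05, adjusted p 0.86), and each was about as far below the wild type, at 19.6-fold and 19.0-fold. Both null lines read under the dim level of 6.67, and whether low signal hid a gap between them was not tested. Trim25 was 1.55-fold lower in the Tsc2-null line and 2.58-fold lower in the Tsc1-null line.

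The interferon-inducible GTPases, which act on membranes around intracellular pathogens, were lower in both lines for 6 of 7 members. Iigp1 was 11.8-fold and 9.18-fold lower, with the widest wild-type spread of the set (10.05, 9.41 and 9.07). Igtp read 10.57, 10.38 and 10.28 in the wild type, 7.97, 7.95 and 7.94 in the Tsc2-null line and 8.60, 8.82 and 8.74 in the Tsc1-null line, 3 levels that did not overlap. Ifi47, Irgm1 and Irgm2 differed by -2.25, -2.16 and -2.29 in the Tsc2-null line and by -1.30, -1.43 and -1.94 in the Tsc1-null line. The Irgm2 gap between the null lines (0.35, adjusted p 0.014) was lost without Tsc2-null replicate 2 (0.086) or Tsc1-null replicate 3 (0.074). Gbp3, a guanylate-binding protein, differed by -2.03 and -2.45. Gbp2 differed by -0.80 in the Tsc2-null line and 0.14 in the Tsc1-null line (adjusted p 0.22), and without wild-type replicate 1 the latter became a call of 0.26 (adjusted p 0.0085).

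Genes of class I antigen presentation had the smallest median differences of the role groups, and all 4 were higher in Tsc1-null than in Tsc2-null cells. B2m, the light chain of class I molecules, read 14.03, 14.00 and 13.95 in the wild type, 13.08, 13.10 and 13.11 in the Tsc2-null line and 13.49, 13.46 and 13.41 in the Tsc1-null line. These levels did not overlap, and the differences were 1.86-fold and 1.45-fold. The peptide transporter subunits Tap1 and Tap2 differed by -1.32 and -1.50 in Tsc2-null cells but by -0.47 and 0.10 in Tsc1-null cells, where Tap2 was not called (adjusted p 0.45). Tapbp, which loads peptides, differed by -0.53 in the Tsc2-null line and was higher by 0.37 in the Tsc1-null line (adjusted p 5.87e-05). The 3 dimmer probe sets of Tap1 were not called in either line.

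Rapamycin left the set close to where it stood. The mean over the 35 members was 9.61 in the wild type, 7.44 under vehicle and 7.48 after 24 h of rapamycin in Tsc2-null cells, and 8.20 and 8.18 in Tsc1-null cells. After 24 h all 35 members were still called lower in Tsc2-null cells than in the wild-type vehicle cells (20.8% of all genes lower, 20.8% higher and 41.6% in either direction), with a median of -1.89, and 32 to 34 were when any 1 array was left out. In Tsc1-null cells at 24 h 26 were called lower and 2 higher (21.7% and 16.8% of all genes, 38.5% in either direction), with a median of -1.45. The median change over the members at 24 h was -0.002 in the Tsc2-null line and -0.04 in the Tsc1-null line, against 0.00 and -0.01 over all genes. There were 20 members of 35 called at some time in either line and 15 at none, against 56.9% of all genes called at some time, a share close to that of the members, and all times of a line share its vehicle arrays.

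In Tsc2-null cells 0 members were called higher and 1 lower at 2 h, 5 and 1 at 6 h, 7 and 2 at 12 h, and 8 and 4 at 24 h, while 2.2%, 21.3%, 34.1% and 35.6% of all genes were called in either direction. Of all genes 1.01%, 11.6%, 16.5% and 17.5% were called higher and 1.19%, 9.7%, 17.7% and 18.1% lower at these times. The members' shares called higher were 14.3%, 20.0% and 22.9% at 6, 12 and 24 h, near those of all genes. With 1 array left out, 2 to 5, 4 to 7 and 6 to 7 members were called higher at these times. In the lower direction the members' shares were 2.86%, 5.71% and 11.4%, below those of all genes, whereas at 2 h the share of 2.86% lay above. Each of these shares rests on few members. Stat2 fell, from 8.04, 8.08 and 8.06 under vehicle to 7.64 and 7.77 at 2 h, 7.44 and 7.45 at 6 h, 7.27 and 7.08 at 12 h and 7.13 and 6.95 at 24 h. No rapamycin array overlapped the vehicle arrays, and the change was -0.62, -0.89 and -1.02 (SE 0.12, adjusted p 2.56e-07) at 6, 12 and 24 h. Irf1 rose over the same hours, by 0.42 at 6 and 12 h and by 0.56 at 24 h (adjusted p 3.16e-06), from 9.54, 9.43 and 9.60 to 10.10 and 10.07, and stayed under the lowest wild-type array at 10.83. Gbp2 rose by 0.48 at 12 h and 0.44 at 24 h.

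Other calls at 24 h in Tsc2-null cells that remained without any 1 array were Ifi27 (0.55), Ddx58 (0.41) and Bst2 (0.40), which rose, and Gbp3 (-0.65) and Usp18 (-0.60), which fell. In the deposited log2 ratios Ddx58 ran the other way and was not called. Usp18 read 5.08 to 6.11 over all Tsc2-null arrays, under the dim level of 6.67. Ifi27 read 7.87 and 7.76 at 24 h, above its vehicle arrays and far below the wild type. Tapbp rose by 0.30 (adjusted p 0.0025), a call lost without 24 h replicate 1 (0.062), and Ifit1 fell by 0.34 (0.0059), lost without 24 h replicate 2 (0.059). At 2 h Ifit1 was the lone call (-0.47, adjusted p 0.0075), lost without 2 h replicate 1 (0.050) or 2 (0.11). Tap2 (0.29, adjusted p 0.027) was lost without vehicle replicate 1 (0.056) or 3 (0.10) or either 24 h array (0.10 and 0.11), and B2m (0.18, adjusted p 0.047) without any 1 of the 5 arrays (0.076 to 0.18).

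In Tsc1-null cells 0 members were called at 2 h, 2 higher and 3 lower at 6 h, 5 and 2 at 12 h, and 2 and 5 at 24 h, while 3.26%, 22.5%, 23.8% and 29.6% of all genes were called in either direction. Of all genes 1.94%, 9.5%, 12.1% and 11.6% were called higher and 1.32%, 13.0%, 11.7% and 18.0% lower. The limma test at 2 h gave 4 members at an unadjusted p under 0.05, and the deposited ratio table gave 1 call. Irf7 rose by 0.50 at 6 h (adjusted p 0.00087) and 0.53 at 12 h (0.00029), from 6.01, 6.02 and 5.86 to 6.52 and 6.47 at 12 h. Irf7 read 5.86 to 6.57 over all Tsc1-null arrays, under the dim level of 6.67. Its call at 24 h (0.37) was lost without 24 h replicate 1 (adjusted p 0.16). Gbp2 rose by 0.64 at 12 h (adjusted p 3.46e-05), to 10.87 and 10.86 from 10.24, 10.20 and 10.24. At 24 h Ifit2 rose by 0.50 (adjusted p 0.0013) and Bst2 fell by 0.38 (adjusted p 0.0033), and both calls remained without any 1 array. Calls at 24 h that did not were Stat2 (-0.49, adjusted p 0.10 without 24 h replicate 1), Ifih1 (-0.49, 0.11 without 24 h replicate 2), Ifi35 (-0.34, 0.26 without 24 h replicate 1 and 0.058 without vehicle replicate 3) and Rsad2 (-0.33, 0.11 without vehicle replicate 3, and 0.078 and 0.089 without 24 h replicates 1 and 2).

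**Figure D4:**
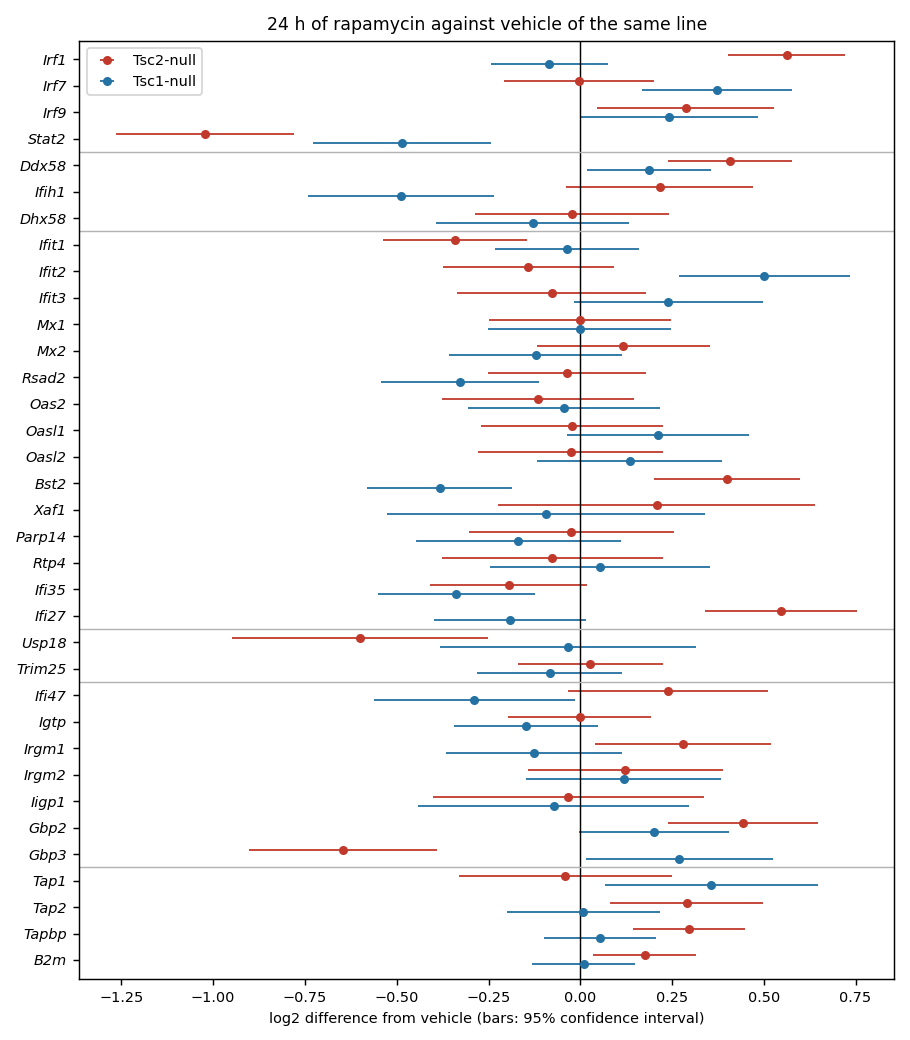
Log2 change from vehicle after 24 h of rapamycin in Tsc2-null (red) and Tsc1-null (blue) cells for each member, with 95% confidence intervals. Points gather around 0, the lowest is Stat2 at -1.02 in Tsc2-null cells, and Irf1, Ifi27 and Bst2 lie right of 0 in the Tsc2-null line and left of it in the Tsc1-null line.

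Stat2 was the 1 member called the same way at 24 h in both lines. The difference between the lines' responses at 24 h was called for 8 members (3 more positive and 5 more negative in Tsc1-null cells), against 20.2% of all genes (8.14% and 12.1% by direction). Irf1, Bst2 and Ifi27 rose in the Tsc2-null line and changed by -0.08, -0.38 and -0.19 in the Tsc1-null line, of which Bst2 was called. Gbp3 fell by 0.65 in the Tsc2-null line and changed by 0.27, not called, in the Tsc1-null line (difference 0.92, adjusted p 0.00048).

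Genes upstream of the members were read from lists of the pathway. Of the interferon genes 6 were measured (Ifnb1, Ifng and 4 interferon alpha genes), at 4.18 to 6.62 in the wild type, and none was called in either null line, at adjusted p of 0.15 or more. An RNA at such a level may be under what the probe sets detect. Among all genes 21.4% were called lower and 23.6% higher in the Tsc2-null line, and 20.8% and 21.3% in the Tsc1-null line. Of 6 receptor genes 3 were lower in each null line. Ifngr1 was lower in both (-0.87 and -1.02), Ifngr2 in Tsc1-null cells (-0.93), and Ifnar2 in Tsc2-null cells (-0.38). Il10rb was lower in Tsc2-null cells (-0.26), and lower again in Tsc1-null than in Tsc2-null cells (-0.55). Of 6 kinases and Stats 5 were higher in the Tsc2-null line and 3 higher and 1 lower in the Tsc1-null line, with Stat5a higher by 1.15 and 1.59. Of 6 negative regulators 6 and 4 were lower, among them Socs1 (-1.43 and -1.09), an inhibitor of the Jak kinases, and Irf2 (-1.35 and -0.93), an antagonist of Irf1. Of 12 genes of nucleic acid and toll-like sensing and interferon induction 7 were lower and 2 higher in the Tsc2-null line and 5 lower and 3 higher in the Tsc1-null line. There Sting1 was lower by -1.13 and -1.97, Cgas by -1.23 and -0.64 and Tlr3 by -2.45 and -0.62.

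Several receptor genes rose with rapamycin in both lines. At 24 h 4 of 6 receptors were called higher in the Tsc2-null line and 5 of 6 in the Tsc1-null line, and 0 lower, against 17.5% and 11.6% of all genes called higher. Of the 5 Tsc1-null calls, 3 remained when any 1 array was left out. Ifnar2 read 9.69, 9.59 and 9.72 under vehicle and 10.58 and 10.56 at 24 h in Tsc2-null cells, and 10.13, 10.18 and 10.23 against 10.93 and 10.98 in Tsc1-null cells, without overlap in either line. Its change was 0.90 (adjusted p 1.60e-09) and 0.77 (adjusted p 3.25e-08). Il10rb, a subunit shared with the lambda interferon receptor, rose by 1.06 and 0.79, and Ifngr2 by 0.41 and 0.49. Ifnar1 rose by 0.56 in Tsc2-null cells, and its call of 0.26 in Tsc1-null cells was lost without 24 h replicate 2 (adjusted p 0.091). The Tsc1-null call of Ifngr1 (0.23, adjusted p 0.038) was lost without 24 h replicate 2 (0.41) or without vehicle replicate 1 (0.13) or 3 (0.075). Jak2 rose by 0.98 and 0.51, Irf2 by 0.60 and 0.66, and Socs3, another inhibitor of receptor signalling, by 0.49 and 0.75.

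**Figure D5:**
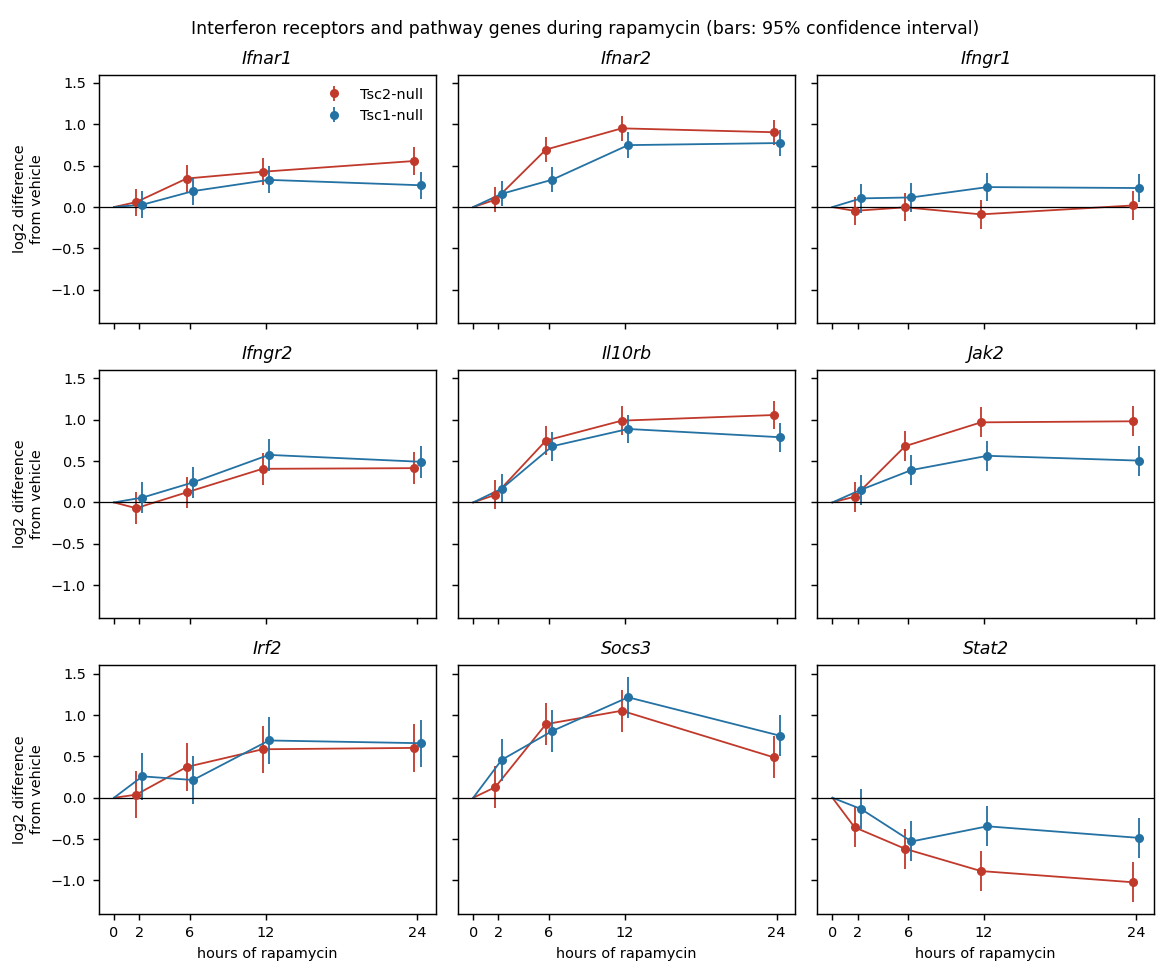
Log2 change from vehicle (y axis) over hours of rapamycin (x axis) for receptor genes, Jak2, Irf2, Socs3 and Stat2 in Tsc2-null (red) and Tsc1-null (blue) cells, with 95% confidence intervals and the vehicle point set at 0. Ifnar2, Il10rb and Jak2 climb by 6 to 12 h and stay up at 24 h, while Stat2 goes down.

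Interferon-inducible genes outside the set were lower as well in most cases. Of 44 measured, 33 were lower and 4 higher in the Tsc2-null line and 27 lower and 5 higher in the Tsc1-null line. Of all genes 21.4% and 20.8% were lower and 23.6% and 21.3% higher. The chemokine gene Cxcl10 differed by -5.09 and -4.54, the class I heavy chain gene H2-D1 by -4.51 and -3.43, and Nlrc5, a transactivator of class I genes, by -3.44 and -3.00. Ly6e differed by -2.44 in the Tsc2-null line and 0.35 in the Tsc1-null line, and Zbp1 by -2.44 and 0.11 (adjusted p 0.50 in Tsc1-null cells). Ifi30 and Ifitm1 were among those that went the other way in Tsc2-null cells. Ifitm1 was higher there by 2.30, and lower in Tsc1-null than in Tsc2-null cells (-2.99). Ifi30, a lysosomal thiol reductase, was higher by 2.32 and 1.95 under vehicle and fell by 1.81 and 1.49 after 24 h of rapamycin. Cxcl10 rose by 1.67 in Tsc1-null cells at 24 h, to 8.30 and 9.31, and changed by 0.33, not called, in Tsc2-null cells.

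Markers of cell type moved between the lines as well. With vehicle, the summed level of 11 fibroblast markers ran from 16.71 to 16.73 in the wild type. It ran from 16.38 to 16.45 in the Tsc2-null line and 16.30 to 16.40 in the Tsc1-null line. Of these markers 2 were called higher and 7 lower in Tsc2-null cells, and 2 and 8 in Tsc1-null cells. The shares of all genes were 23.6% and 21.4%, and 21.3% and 20.8%. Thy1 was lower by -3.96 and -3.15. In Tsc2-null cells Pdgfrb (-2.47) and Lum (-1.91) were also lower, and Col3a1 (0.42) and Dcn (0.25) higher. After 24 h of rapamycin the fibroblast sum was 16.69 to 16.71 and 16.64 in the null lines. The vehicle sum of 8 macrophage markers ran from 9.95 to 10.02, 9.70 to 9.80 and 10.38 to 10.48, led by Cd14 (-0.72 and 1.08), while Ptprc and Itgam stayed near 4 log2 units and were not called. Of 3 plasmacytoid dendritic cell markers the vehicle sum ran from 11.28 to 11.38 in the wild type, 9.16 to 9.24 in the Tsc2-null line and 10.60 to 10.80 in the Tsc1-null line, the same order as the members' mean. It was carried by Tcf4 (-2.40 and -0.67), while Siglech and Tlr7 were not called. None of 4 T and NK cell or 2 B cell markers was called in either null line. Of 4 endothelial markers 1 was called higher and 0 lower in each null line. This was Kdr (0.28 and 1.00). Of 4 epithelial markers 1 was called higher and 2 lower in Tsc2-null cells, and 0 and 2 in Tsc1-null cells. The cadherin Cdh1 was higher by 4.19 in Tsc2-null cells and the keratin Krt18 lower by -1.60 and -4.18. In Tsc2-null cells Epcam was lower by -0.39, and Krt8 (-0.09) was not called. The part of these markers in the results was not tested.

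The genes whose group means ran most like the mean of the members over the 11 groups, outside the set, were Traf5 (Pearson r 0.993), H2-K1 (0.987), Gm9706 (0.986), H2-D1, Ntn1 and Arhgap22 (0.98 each). The 11 points come from only 3 lines and share their arrays. Gm9706 is the gene named with Isg15 on the probe set left out, and with vehicle its own probe set read 8.21 in the wild type, 5.52 in the Tsc2-null line and 6.64 in the Tsc1-null line. Traf5, a signalling adaptor of tumour necrosis factor receptors, read 8.43, 7.10 and 7.62.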

How the data were processed

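RNA was labelled by T7 amplification and hybridised to 1-colour Affymetrix arrays, 1 per sample. The authors deposited log2 values, made with RMA (background correction, quantile normalization and probe set summary) per the submitters' processing notes, which also name limma, and no versions are stated there. Array number limits the precision. A second deposited table of log2 ratios served as an alternative. Of 45101 probe sets, 34945 named 1 gene, and each gene was taken from its probe set with the highest mean over the 25 arrays (9020 genes had several). limma 3.58.1 (lmFit and eBayes, R 4.3.3) was fitted to all arrays with 11 group means, two-sided, with Benjamini-Hochberg adjustment over 18162 genes and a threshold of 0.05; the procedure was tested on simulated data. Groups follow titles and time labels, since a free-text field gives 11 and 14 h for Tsc1-null samples labelled 12 and 24 h. All members may be named, pathway and marker genes come from fixed lists, and members and lists were chosen with earlier results of these data known. Alternatives were quantile normalization, median centring, 64 added to linear values, leaving out the dimmest 40% of genes, the mean of a gene's probe sets, trend and robust eBayes, a fit on the compared groups alone, a replicate block, the ratio table, and leaving out each array. For pathway genes outside the set only the last was run, chosen after seeing the data.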

Additional observations from a re-analysis of the deposited data

Results flagged for a closer look

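The response to 24 h of rapamycin differed between the null lines for 8 members by the interaction term of the limma fit (Tsc1-null minus Tsc2-null change, Benjamini-Hochberg over all genes, 2 rapamycin and 3 vehicle arrays per line). These were 8 of 35 members, close to the 20.2% of all genes called (8.14% more positive and 12.1% more negative). Gbp3 (0.92, adjusted p 0.00048), Ifit2 (0.64, 0.0049) and Stat2 (0.54, 0.023) were more positive in Tsc1-null cells. Bst2 (-0.78, 0.00018), Ifi27 (-0.74, 0.00048), Ifih1 (-0.70, 0.0047), Irf1 (-0.65, 0.00013) and Ifi47 (-0.53, 0.048) were more negative. The Ifi47 call was lost in 8 of 10 leave-outs of 1 array (highest adjusted p 0.16, without Tsc1-null 24 h replicate 2), and the Stat2 call in 2 of 10 (highest adjusted p 0.17, without the same array). Groups of 2 or 3 arrays are too small for a test of outlying arrays.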

How the results depend on the processing

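Of the 207 called differences of single members, 205 kept their call under quantile normalization and under trend and robust eBayes, 198 with arrays centred on their medians, 196 with 64 added, 202 with the mean of a gene's probe sets and 199 with only the compared groups in the fit. With the dimmest 40% of genes left out, all 173 that could be tested did, and 28 members were left. The deposited log2 ratios, which are 0 on all 25 arrays for 61.4% of probe sets, kept 141 of 186. Same-numbered vehicle arrays correlated at -0.292 to 0.136 in their deviations from group means, and other-numbered ones at -0.276 to 0.38. Deviations within such small groups are tied to each other, so these values cannot decide whether replicate numbers pair the samples. With the replicate number as a block, 198 of the 207 kept their call, and the counts of members called were 34 (Tsc2-null against wild type), 29 (Tsc1-null against wild type), 25 (null lines against each other), 1, 5, 9 and 10 (Tsc2-null at 2, 6, 12 and 24 h), 0, 4, 5 and 7 (Tsc1-null) and 7 (interaction).

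One value that reversed was Xaf1 between the null lines with the mean of all probe sets (-0.21, adjusted p 0.24). That value averages its 2 probe sets, which disagree as given above, and the kept one gave 1.98. Also reversed by the deposited log2 ratios were Ddx58 at 24 h in the Tsc2-null line (-0.26, adjusted p 0.12) and Irgm1 at 6 h in the Tsc1-null line (0.10, adjusted p 0.55). For these the cause was not tested. Counts moved by over 1.5 times as follows. Centring gave 4 at 12 h in the Tsc1-null line. At 2 h in the Tsc2-null line 64 added gave 0, as did a fit on the compared groups, which gave 8 at 6 h in the Tsc1-null line. The ratios, which measured 30 members, gave 16 between the null lines, 3, 3 and 7 at 6, 12 and 24 h in the Tsc2-null line, 1 at 2 h in the Tsc1-null line and 5 for the interaction. Leaving out 1 array gave 34 to 35 members in the Tsc2-null and 28 to 30 in the Tsc1-null comparison with the wild type, and 23 to 25 between the null lines. It gave 0 to 1, 3 to 6, 6 to 9 and 9 to 11 in the Tsc2-null line at 2, 6, 12 and 24 h, 0 to 1, 1 to 5, 3 to 6 and 4 to 8 in the Tsc1-null line, and 7 to 9 for the interaction. The lowest counts came without 6 h replicate 1 (3) and 2 h replicate 1 or 2 (0) of the Tsc2-null line, and without 6 h replicate 2 (1), 12 h replicate 2 (3) and 24 h replicate 1 (4) of the Tsc1-null line. In that line 6 h replicate 1 gave 3 at 6 h when left out, 12 h replicate 1 and vehicle replicates 1 and 2 gave 4 at 12 h, and vehicle replicate 3 gave 1 at 2 h. Low signal limits the Tsc2-null levels most, with 12 members under the dim level of 6.67.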
